A study of Mus musculus with 6 samples.

Results

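Klk5 to Klk14 are 10 kallikrein-related peptidase genes that lie side by side on mouse chromosome 7. All 10 were found by symbol among the 22806 features of the deposited table. The members were chosen by measured values in 1 case and by position in the others: Klk10 was selected on its FPKM difference between the groups compared here, among the largest rises, and the other 9 because they are its neighbours in the cluster. Levels are given in FPKM, a read abundance corrected for the length of the transcript and the size of the library, so that levels of different genes can be set side by side. The samples were 6 RNA-seq libraries of 4T1, a mouse mammary carcinoma cell line, all harvested after 24 h. In 3 of them the cells had received phosphate-buffered saline (PBS), and in the other 3 nanoparticles named CM-PEG-PLGA@DOX/R848, at a dose equivalent to 2 µg/mL of doxorubicin (DOX). Doxorubicin is an anthracycline that poisons topoisomerase II, and R848 (resiquimod) activates the endosomal receptor TLR7. All data come from a single cell line, and cells given a free drug or unloaded particles are not analysed here. Separate cultures are not stated for the 3 libraries of a group, so the p-values reflect only library-to-library spread, which may be technical.

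Kallikrein-related peptidases are secreted serine proteases with trypsin-like or chymotrypsin-like specificity. They are made as inactive precursors, are switched on when a short propeptide is removed, often by another member of the family, and are held in check by serpins and Kazal-type or Kunitz-type inhibitors. In epidermis they form a cascade that sheds the outermost cells, and in other epithelia they cleave matrix proteins, growth factor binding proteins and protease-activated receptors. KLK10 was first described as normal epithelial cell-specific 1, a gene expressed in normal breast epithelium and reduced in many breast tumours.

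Sequencing depth is unknown, and no counting intervals are given. Libraries held similar numbers of genes at 1 FPKM or more (10596 to 10631), but genes above 0 numbered 13544 to 13808 with PBS and 18319 to 18509 with nanoparticles. Of 8 epithelial markers, 6 were tested. Of these, 5 were called higher with nanoparticles, beside 40.5% of all tested genes (86.4% were called in either direction). Among the 5 were Krt8 (mean 215 FPKM with PBS) and Cdh1 (18.9 FPKM). The other tested marker, Cldn4, stood at 2.79 to 3.25 FPKM with PBS and at 2.59 to 2.66 FPKM with nanoparticles. It was not called (limma adjusted p = 0.0623). Epcam stayed under 1 FPKM in every library (Cldn4 and Epcam were named after their values were seen). Of 12 markers of other cell types, 8 stayed under 1 FPKM in every library, and of the 4 tested 1 was called higher and 3 lower. The 1 called higher was Csf1r, the macrophage colony-stimulating factor receptor, which had a mean of 0.0416 ± 0.0125 FPKM in the PBS group and of 1.45 ± 0.36 FPKM in the nanoparticle group (SD, n = 3), a direction that the filter on low values fixed. Ptprc, the leukocyte marker CD45, was listed at 0 in all PBS libraries and at 0.389 to 0.612 FPKM with nanoparticles (both named after their values were seen). The summed level of these 12 markers was 41 to 41.2 FPKM with PBS and 11.6 to 13.4 FPKM with nanoparticles, mostly Pdgfra, Pdgfrb and Cdh5, the 3 called lower, so that it does not show the rise of Csf1r. The part of these markers in the results below was not tested. In bulk samples, fewer cells of a type and less RNA per cell cannot be told apart.

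The kallikrein locus turned from one in which Klk8 was the most abundant transcript into one dominated by Klk10. Klk10 stood at 1.12, 1.56 and 2.01 FPKM with PBS and at 85.9, 84.4 and 80.8 FPKM with nanoparticles. Every nanoparticle library was far above every PBS library, and the means were 1.56 ± 0.445 and 83.7 ± 2.62 FPKM (SD, n = 3 per group), a ratio of 53.6. On the log2(FPKM + 1) scale the difference was 5.06 (standard error 0.114), the fourth in rank of 10863 tested genes. Just above it stood Gadd45b at 5.09 and just below it Fos at 5.04. Among all 22105 genes, Klk10 ranked 10228 by its PBS mean and 839 by its nanoparticle mean. Since this difference is what chose Klk10, it is given as a description and without a test. It was 4.93 to 5.69 over all 12 settings run.

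Klk10 lies at GRCm38 chromosome 7, 43781035 to 43785410, on the plus strand, and spans 4.38 kb. Klk11 ends 1.77 kb before it and Klk9 begins 6.48 kb after it. All 10 members lie on the plus strand within 160.8 kb, and 9 of them span under 10 kb. The gaps between neighbours range from 0.819 kb (Klk9 to Klk8) to 41.4 kb (Klk13 to Klk12). The members share few exact stretches of 30 bases in their GENCODE transcripts. None was shared with another kallikrein for 8 of the 10, and only 2 each for Klk11 and Klk12. Inexact matches and genes other than kallikreins were not compared.

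Klk8 and Klk6 are the other 2 members that reached the level tested (1 FPKM in at least 3 libraries). Klk8, or neuropsin, a trypsin-like protease known from hippocampus and skin, stood at 3.8, 3.2 and 4 FPKM with PBS and at 3.86, 3.39 and 3.57 FPKM with nanoparticles. Its groups overlapped throughout, and the difference was -0.02 on the log2(FPKM + 1) scale (standard error 0.08). Klk8 begins 16.5 kb from the start of Klk10, at chromosome 7, 43797577 to 43803826.

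Klk6, or neurosin, a trypsin-like protease abundant in brain and also secreted by epithelial tumours, stood at 0.13, 0 and 0 FPKM with PBS and at 1.72, 2.67 and 2.52 FPKM with nanoparticles. Every nanoparticle library was above every PBS library. The difference was 1.65 on the log2(FPKM + 1) scale (standard error 0.119), but with a pseudocount of 0.1 it became 4.16, since the PBS values are close to 0. Klk6 passed the filter on low values only through the nanoparticle libraries, so its direction was fixed by the filter. It lies at chromosome 7, 43824499 to 43832030, with Klk7 between it and Klk8.

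In the fit across all tested genes, 2 of these 3 members (Klk10 and Klk6) were called higher, both by at least 2-fold, and 1 (Klk8) was not called. Of all tested genes, 86.4% were called, 40.5% higher and 46% lower, and 10.2% were called and at least 2-fold higher. Of the 2658 tested genes with a genomic span under 10 kb, 60.2% were called higher and 25.7% lower. Of the 240 tested genes that, like Klk6, were under 1 FPKM in all PBS libraries, 99.6% were called higher. Because the contrast was used to choose Klk10, nothing is read from this count.

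**Figure D1:**
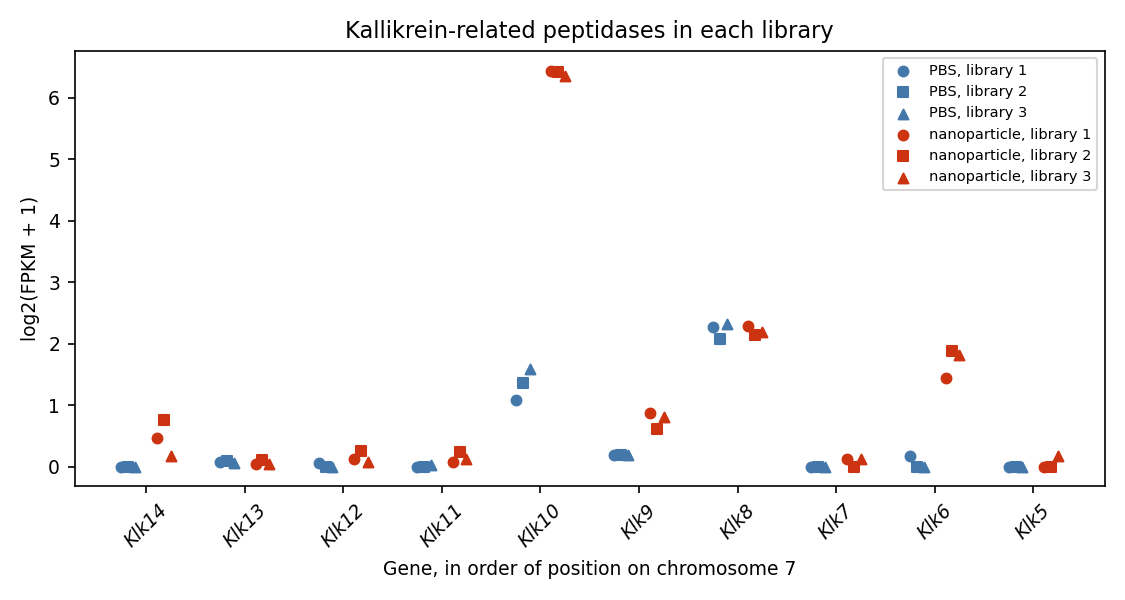
Level of each member in each library on the log2(FPKM + 1) scale (vertical axis), with genes in chromosomal order (horizontal axis), PBS in blue, nanoparticle in red and a marker shape per library number. Klk10 separates the groups by about 5 units, Klk6 by a smaller step from near 0, and the 2 groups lie over each other for Klk8.

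The sequences before the starts of these 3 genes are shown because the genes are close neighbours on 1 strand with different behaviour. They are from RefSeq (GRCm38.p6), 5′ to 3′ on the plus strand, and end before the first base that RefSeq or GENCODE M21 places in an exon. Klk10 is chr7:43780804-43781034, Klk8 is chr7:43797327-43797576 and Klk6 is chr7:43824294-43824498. Capitals would mark a match to 1 of the 6 motifs searched, and none occurs.
Klk10: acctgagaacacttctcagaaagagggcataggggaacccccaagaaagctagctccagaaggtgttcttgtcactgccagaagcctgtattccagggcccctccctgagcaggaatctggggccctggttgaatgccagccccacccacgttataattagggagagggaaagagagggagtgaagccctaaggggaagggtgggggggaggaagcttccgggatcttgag
Klk8: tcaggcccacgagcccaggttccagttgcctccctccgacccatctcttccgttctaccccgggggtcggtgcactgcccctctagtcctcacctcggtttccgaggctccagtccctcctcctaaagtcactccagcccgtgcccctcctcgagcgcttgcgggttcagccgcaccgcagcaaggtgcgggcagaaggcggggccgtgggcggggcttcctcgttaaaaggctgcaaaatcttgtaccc
Klk6: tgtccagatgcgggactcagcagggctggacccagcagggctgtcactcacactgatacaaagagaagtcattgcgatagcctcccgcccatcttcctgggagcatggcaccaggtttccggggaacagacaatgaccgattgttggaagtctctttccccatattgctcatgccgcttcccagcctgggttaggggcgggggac

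Each motif was searched on both strands in the 250 bases before every RefSeq start, 12 windows for the 10 members (Klk6 and Klk11 have 2 each) among 32851 windows in all. No member window held TGACTCA (AP-1, in 4.46% of all windows), TGACGTCA (CRE, 1.55%), GCGTGGGCG (EGR, 0.536%), the NF-kB consensus (0.14%) or CACGTG (E-box, 6.02%). The core of an interferon response element, GAAA on either side of 2 free bases, was in 2.98% of all windows and in 1 member window, that of the second start of Klk11, as GAAAAAGAAA from 188 to 179 bases before the start. These counts say only which letters are in these windows. The share of G and C was 65.2% before Klk8, 56% before Klk10 and 55.2% before the first start of Klk6, with a median of 52.4% over all windows.

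The other 7 members stayed under 1 FPKM in every library and were not tested. Klk9, the next gene after Klk10, stood at 0.137, 0.138 and 0.145 FPKM with PBS and at 0.838, 0.531 and 0.755 FPKM with nanoparticles. Klk14, a trypsin-like protease of skin that can activate other kallikreins, was listed at 0 in all PBS libraries and stood at 0.377, 0.685 and 0.133 FPKM with nanoparticles. In both genes every nanoparticle library was above every PBS library, and the Klk14 values spread over a wide range.

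Klk12 stood at 0.0369, 0 and 0 FPKM with PBS and at 0.0885, 0.195 and 0.0563 FPKM with nanoparticles. Klk11, once called hippostasin, stood at 0, 0 and 0.0193 FPKM with PBS and at 0.0477, 0.175 and 0.0955 FPKM with nanoparticles. These 2 genes lie just before Klk10 and also had no overlap between groups, at levels below 0.2 FPKM. Klk13, at 0.0372 to 0.062 FPKM with PBS, overlapped with its nanoparticle values of 0.0245 to 0.0834 FPKM.

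Klk5 and Klk7, the trypsin-like and chymotrypsin-like proteases that lead shedding in the epidermis, were near the floor in both groups. Klk7 was listed at 0 with PBS and at 0.0937, 0 and 0.0888 FPKM with nanoparticles. Klk5 was above 0 in 1 library only, nanoparticle library 3, at 0.124 FPKM.

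In order of PBS level, Klk8 (3.67 FPKM), Klk10 (1.56 FPKM) and Klk9 (0.14 FPKM) were each separate from the next, and the libraries of the remaining 7 overlapped from neighbour to neighbour. With nanoparticles the order was Klk10 (83.7 FPKM), Klk8 (3.61 FPKM) and Klk6 (2.3 FPKM), again each separate from the next, followed by Klk9 (0.708 FPKM), which overlapped with Klk14 (0.398 FPKM). The share of Klk10 in the summed level of the 10 members was 21.2% to 32.3% with PBS and 91.6% to 92.4% with nanoparticles. Without Klk10 the sum of the other 9 was 3.4 to 4.2 FPKM with PBS and 7.06 to 7.73 FPKM with nanoparticles.

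The low members have to be read beside the other low genes of the table. Of the 11242 genes below the level tested, 40.3% had every nanoparticle library above every PBS library and 3.08% the reverse. A gene listed at 0 in all PBS libraries, as 7328 genes were, cannot be lower. The difference between these shares is therefore partly built in. Among the 7 untested members, 4 (Klk9, Klk14, Klk12 and Klk11) had every nanoparticle library above every PBS library. By PBS level, 1 of 3 members listed at 0 in all PBS libraries had groups that did not overlap, with 35.9% of the 7328 genes of that kind. Of the 4 members with a PBS mean above 0 and under 0.1 FPKM, 3 did so, with 60.1% of the 2601 genes of that kind higher and 0.884% lower. Klk9 was the only member with a PBS mean of 0.1 to under 1 FPKM, where 38.9% of genes were higher without overlap and 18.5% lower. Klk10 was higher and Klk8 overlapped at a PBS mean of 1 to under 5 FPKM, where 37.2% of genes were higher without overlap and 42.8% lower. The part of this general pattern in the values of the low members was not tested.

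**Figure D2:**
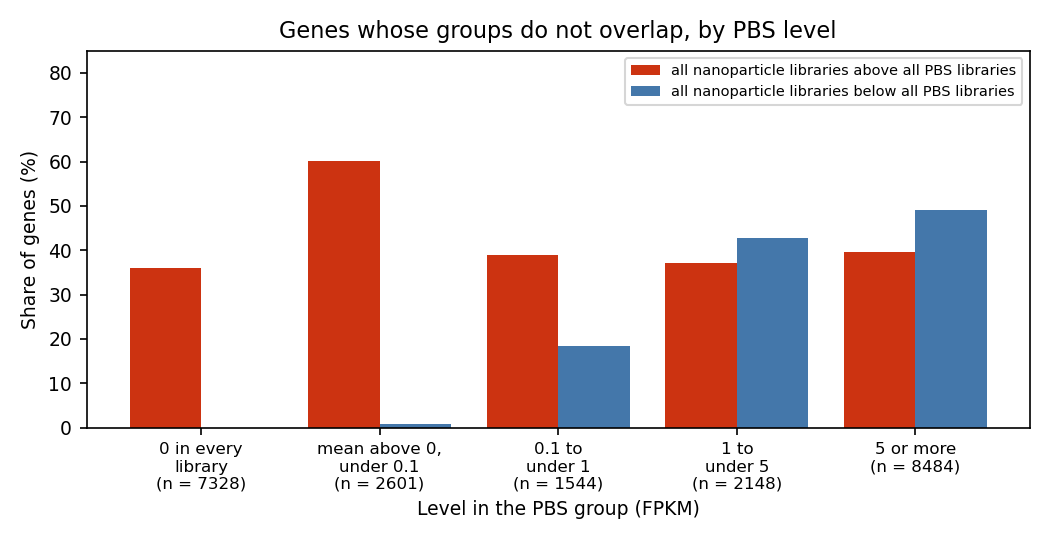
Share of all genes (vertical axis, percent) whose 3 nanoparticle libraries all lay above (red) or all below (blue) the 3 PBS libraries, by level in the PBS group in FPKM (horizontal axis). Below 0.1 FPKM almost all genes without overlap were higher with nanoparticles, while at 5 FPKM or more 39.6% were higher and 49% lower. Genes at 0 in all PBS libraries could not be lower, and genes near 0 had little room to be, so this one-sidedness is partly built in.

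Within these classes the members differed from each other. Klk6, at 2.3 FPKM with nanoparticles, was exceeded by 8 of the 2601 genes with a PBS mean above 0 and under 0.1 FPKM. Klk14, at 0.398 FPKM, was exceeded by 66 of the 7328 genes listed at 0 in all PBS libraries. Klk12 and Klk11 were near the middle of theirs, exceeded by 48.8% and 51.6% of the genes in the class, and Klk9 was exceeded by 29.7% of the 1544 genes with a PBS mean of 0.1 to under 1 FPKM. Klk13 was exceeded by 77.6% of its class, Klk5 by 41.5%, Klk7 by 32.5%, Klk8 by 34.7% and Klk10 by 3 of 2148 genes. These ranks use the same contrast as the choice of Klk10 and are given as a description.

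The remaining tissue kallikreins, Klk4, Klk15, Klk1 and 13 genes of the mouse Klk1b group, continue the cluster beyond Klk5. All 16 were listed at 0 in all 3 PBS libraries, and 8 of them were above 0 in a nanoparticle library, at most 0.225 FPKM. Of all 7328 genes listed at 0 in all PBS libraries, 73% were above 0 in a nanoparticle library. Klk15 ranged from 0.0789 to 0.225 FPKM and Klk4 from 0.0416 to 0.0484 FPKM with nanoparticles (both named after their values were seen). These were the 2 of 16 whose groups did not overlap, beside 35.9% of the 7328 genes listed at 0 in all PBS libraries. Klk1 and the Klk1b genes are close copies that share 20.5% to 58.1% of their stretches of 30 bases, so single values are uncertain.

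Genes near the cluster were examined in the same way. Within 500 kb of the members the table held 42 other genes, the 16 kallikreins above among them, and 6 of the 42 were tested. Of these 6, 5 rose, 0 fell and 1 did not pass (Zfp658, 0.06 on the log2 scale, named after its values were seen), beside 40.5% of all tested genes higher and 46% lower. The nearest tested gene on the Klk14 side was Ctu1, a tRNA thiolation enzyme, which rose from 3.46 ± 0.347 to 6.61 ± 0.448 FPKM (limma adjusted p = 5.42e-06, difference 0.77 with SE 0.074 on the log2 scale). On the other side the only tested gene was 2410002F23Rik, 465.7 kb from the start of Klk10, which rose from 22.5 ± 0.811 to 76.6 ± 3.68 FPKM (limma adjusted p = 4.09e-10, difference 1.72 with SE 0.042 on the log2 scale). The median log2 fold change was 0.61 over the 6, 0.34 over tested genes with a span under 10 kb and -0.06 over all tested genes. Over all 42 genes, tested or not, 15 had every nanoparticle library above every PBS library, 3 had every one below (Cd33, Clec11a and Shank1, named after their values were seen) and 24 overlapped. Over the whole table, 35.9% to 60.1% of genes were above without overlap, depending on PBS level, and 0% to 49% below. Nothing is read from the count of 15. No gene in the table lies between the members other than the members themselves.

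**Figure D3:**
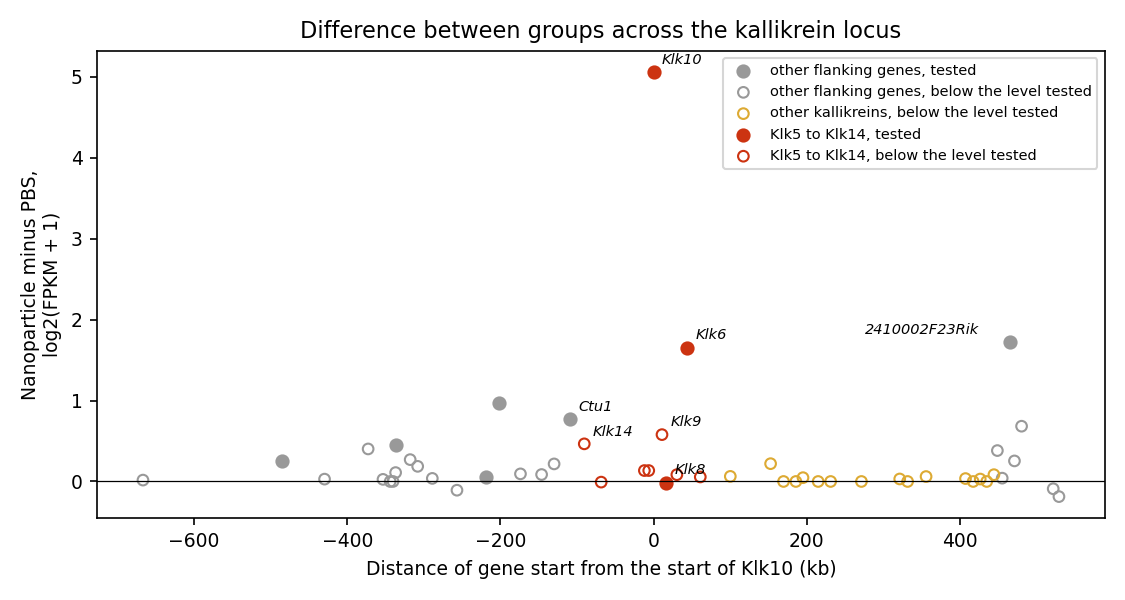
Difference between groups on the log2(FPKM + 1) scale, from the fit with no filter on low values (vertical axis), for each gene by the distance of its start from that of Klk10 in kb (horizontal axis). Filled points reached the level tested and open points did not; Klk10 stands at 5.06, Klk6 at 1.65 and 2410002F23Rik at 1.72, Klk9 lies at 0.58, and the 16 kallikreins outside the group lie near 0.

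Among the genes whose levels over the 6 libraries were most like those of Klk10 were Btg2, Gadd45b, Zbp1 and Il24. Their mean absolute difference from Klk10 on the log2(FPKM + 1) scale was 0.2, 0.279, 0.314 and 0.325. Btg2, an antiproliferative gene, stood at 2.4, 2.14 and 1.97 FPKM with PBS and at 82.3, 87.1 and 86.5 FPKM with nanoparticles. Klk10 was chosen by this contrast and Btg2 by its likeness to Klk10, so the gap between the groups of Btg2 follows from the choice. With 3 libraries in each of 2 groups, this likeness describes a low level in one group and a similar high level in the other.

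Several kallikreins act on cells through receptors, which they cleave or whose ligands they release. Of 8 receptor and kininogen genes, 4 were tested, of which 3 rose, 0 fell and 1 did not pass (Bdkrb1, 0.21 on the log2 scale, named after its values were seen), beside 86.4% of all tested genes called and 40.5% called higher. F2rl1, which encodes PAR2, the receptor that several trypsin-like kallikreins cleave and activate, stood at 10.1, 9.46 and 9.63 FPKM with PBS and at 46.4, 45.8 and 48.3 FPKM with nanoparticles. The groups were well apart (limma adjusted p = 7.93e-11, difference 2.16 with SE 0.04 on the log2 scale). Bdkrb2, the constitutive bradykinin receptor, rose from 7.98 ± 0.451 to 40.7 ± 0.577 FPKM (limma adjusted p = 1.37e-10, difference 2.21 on the log2 scale). F2r, which encodes the thrombin receptor PAR1, went from 43.7 ± 0.978 to 46.4 ± 1.34 FPKM (limma adjusted p = 0.0376, difference 0.08 on the log2 scale). The F2r call was lost with a replicate block (adjusted p = 0.0646, limma), with no filter on low values, and without PBS library 1, PBS library 3, nanoparticle library 1 or nanoparticle library 3, and its direction turned on the TPM scale. Over its alternatives the adjusted p of F2r ranged from 0.0194 to 0.127. The median log2 fold change of the tested receptors was 1.18, beside -0.06 over all tested genes. It falls in the gap between Bdkrb1 (0.21) and F2rl1 (2.16), and 4 genes are too few for this comparison.

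Of 14 proteases that can activate kallikrein precursors or take part in their cascades, 5 were tested, of which 4 rose and 1 fell, beside 40.5% of all tested genes higher and 46% lower. Plau, the urokinase-type plasminogen activator, stood at 104, 105 and 106 FPKM with PBS and at 347, 361 and 353 FPKM with nanoparticles, without overlap (limma adjusted p = 2e-11, difference 1.74 with SE 0.025 on the log2 scale). Plat, the tissue-type plasminogen activator, rose from 16.4 ± 0.875 to 49.2 ± 1 FPKM, and St14, the membrane protease matriptase, from 6.34 ± 0.854 to 13.5 ± 0.263 FPKM. Prss8, which encodes prostasin, a partner of matriptase, fell from 9.2 ± 0.219 to 4.69 ± 0.0857 FPKM (limma adjusted p = 1.05e-07, difference -0.84 on the log2 scale). Plg, which encodes plasminogen, was listed at 0 in all PBS libraries and at 0.103 to 0.156 FPKM with nanoparticles. The median log2 fold change of the 5 was 0.99.

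Of 17 inhibitors, 4 were tested, of which 2 rose, 1 fell and 1 did not pass. Over all tested genes, 40.5% were called higher and 46% lower, and 4 genes are too few to compare with these shares. Slpi, the secretory leukocyte protease inhibitor, was the most abundant, at 1704, 1646 and 1713 FPKM with PBS and at 992, 1025 and 1041 FPKM with nanoparticles. It fell by 0.73 on the log2 scale (standard error 0.028, adjusted p = 6.84e-09, limma). Serpinb6a, an intracellular serpin, rose from 179 ± 5.47 to 227 ± 3.87 FPKM and Spint2, a Kunitz-type inhibitor of matriptase and prostasin, from 181 ± 3.7 to 222 ± 6.24 FPKM. Its relative Spint1 stood at 62.6 ± 0.661 and 64 ± 1.59 FPKM and did not pass (limma adjusted p = 0.327, difference 0.03 on the log2 scale), but was called lower on the TPM scale. Over the other alternatives its adjusted p ranged from 0.121 to 0.586. Spink5, which encodes LEKTI, the main inhibitor of epidermal kallikreins, was listed at 0 with PBS and at 0.0434 to 0.0814 FPKM with nanoparticles. The median log2 fold change of the 4 was 0.16.

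Of 23 genes for known substrates, 8 were tested, of which 3 rose, 4 fell and 1 did not pass (Fn1, 0.05 on the log2 scale, named after its values were seen). These counts are near the 40.5% of all tested genes called higher and the 46% called lower. Plaur, the urokinase receptor, rose from 23 ± 0.561 to 140 ± 3.88 FPKM (limma adjusted p = 1.07e-11, difference 2.56 on the log2 scale). App, the amyloid precursor protein, fell from 104 ± 2.04 to 48.9 ± 1.34 FPKM, and Mbp, myelin basic protein, from 9.51 ± 0.26 to 4.36 ± 0.413 FPKM. The median log2 fold change of the 8 was -0.21. Corneodesmosin and the desmogleins and desmocollins of the list, which kallikreins cleave in epidermis, stayed under 1 FPKM in every library.

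Klk genes are also known from the outer layers of epidermis, so 27 genes of the cornified layer were examined. Of these, 21 stayed under 1 FPKM in every library, including the defining genes Krt1, Ivl and Loricrin, which never exceeded 0.099 FPKM. Of the 6 tested, 5 rose and 1 fell, beside 40.5% of all tested genes higher and 46% lower. Sbsn, the secreted protein suprabasin, rose from 4.55 ± 0.186 to 23.8 ± 2.7 FPKM (limma adjusted p = 5.34e-09, difference 2.15 on the log2 scale), while Ppl, which encodes periplakin, fell from 18.8 ± 0.342 to 11.7 ± 0.387 FPKM. Cst6, an inhibitor of cysteine proteases, went from 0.394 ± 0.0905 to 2.47 ± 0.0814 FPKM; it is 1 of 4 members of this list under 1 FPKM in all PBS libraries, whose direction the filter fixed. The median of the 6 was 1.03 on the log2 scale, and with 4 of them fixed in direction it is no sign that the list moved.

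Several kallikreins are regulated by steroid hormones and vitamin D in other tissues. Of 6 receptor genes of this kind, 3 were tested and all 3 fell, beside 46% of all tested genes. Nr3c1, the glucocorticoid receptor, fell from 15.1 ± 0.335 to 5.47 ± 0.28 FPKM (limma adjusted p = 6.1e-09, difference -1.31 on the log2 scale). Rxra, the shared partner of many nuclear receptors, fell by 1.81 and Vdr, the vitamin D receptor, by 0.96 on the log2 scale. These 3 genes span 56.2 kb (Vdr) to 108.9 kb (Nr3c1), and the part of span in their fall was not tested.

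**Figure D4:**
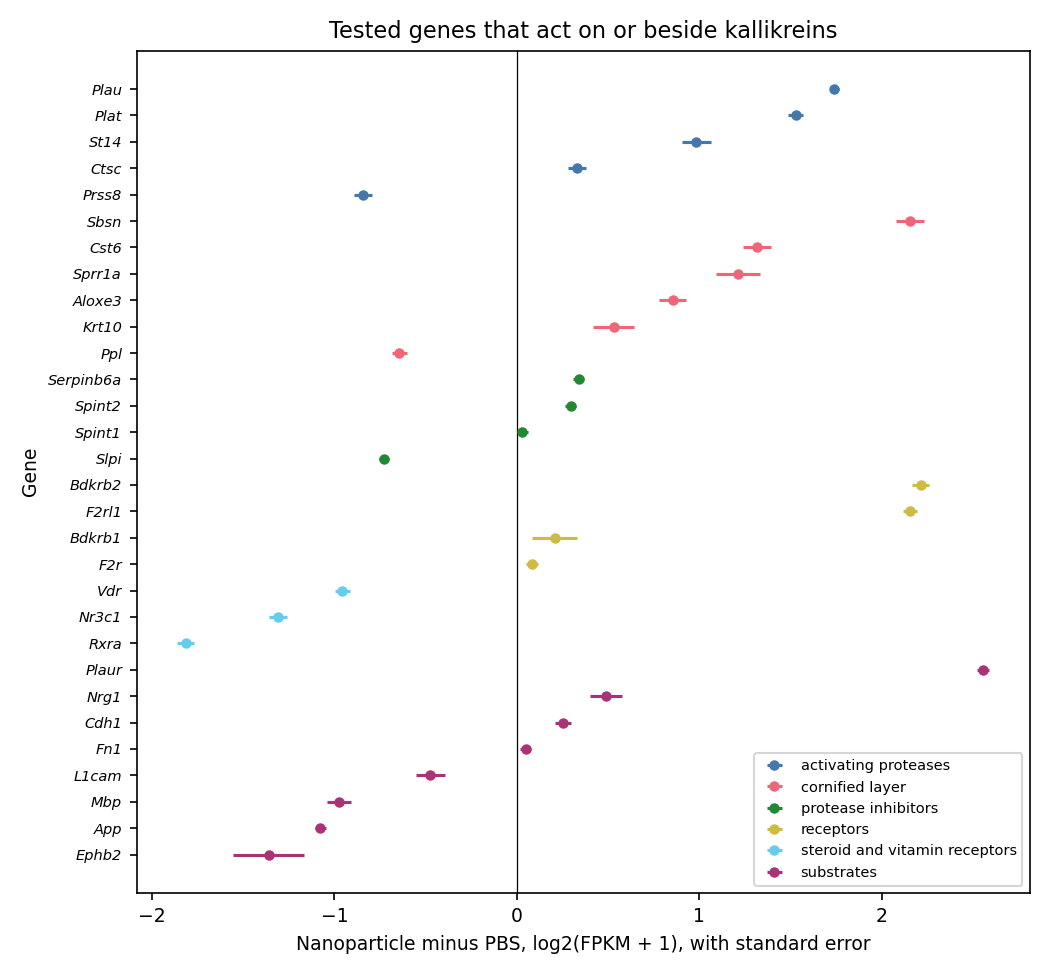
Difference between groups on the log2(FPKM + 1) scale with its standard error (horizontal axis) for each tested gene (vertical axis) of the 6 lists of receptors, proteases, inhibitors, substrates, cornified layer genes and steroid and vitamin receptors, coloured by list. Plaur, Bdkrb2, F2rl1 and Sbsn lie above 2, and Rxra, Ephb2 (-1.36) and Nr3c1 lie lowest of the genes shown.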

How the data were processed

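Messenger RNA of 6 libraries (3 PBS, 3 nanoparticle) was sequenced by the submitters. STAR, featureCounts and the builds GRCm38 and mm10 are named per the submitters' processing notes, without role or version. The unit of the deposited values, FPKM, was inferred: the header gives none, the values include fractions, and multiplying them by exonic length gave closely similar library totals. The program by which the authors made the FPKM values is not stated. The 701 features without a gene identifier (0.631% to 0.67% of summed FPKM) were left out of tests.

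Values were transformed to log2(FPKM + 1), a scale that understates the change of low genes. Testing was limited to the 10863 genes that reached 1 FPKM in at least 3 libraries. All 6 libraries entered a single limma model (limma 3.58.1, statmod 1.5.0, R 4.3.3, trend and robust settings), with no term for the replicate number. The p-values are two-sided, Benjamini-Hochberg adjusted over all tested genes, and called under 0.05; the script was tested on simulated data. Rose and fell are used for called genes. Positions are from GENCODE M21 (GRCm38, matched for 99.5% of genes), and promoter windows from RefSeq. Python 3.11.15 was used, with numpy 2.4.6, pandas 2.3.3 and, for figures, matplotlib 3.10.9.

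The members and lists were chosen with earlier results of these data known. Genes were named by rule: all members, other kallikreins above 0.5 FPKM, the 3 tested genes per list with the lowest adjusted p, fixed receptors, proteases and inhibitors, the nearest tested neighbours and the 5 genes most like Klk10 (clone names left out); 1 gene this rule chose is not reported here. Alternatives were a pseudocount of 0.1, no filter, TPM, median-of-ratios scaling, a replicate block and each library left out.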

Additional observations from a re-analysis of the deposited data

How the results depend on the processing

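Klk10 and Klk6 were higher and Klk8 was not called under all 11 alternatives run. Klk10 was chosen by this contrast, and the filter fixed the direction of Klk6. That they stayed higher was therefore likely from the start and is no support. With no filter on low values, 7856 of all 22105 genes were called higher, in place of 4395 of 10863. In that setting 3 of the 10 members were called higher, in place of 2 of the 3 tested. Also called higher were 2 of 16 other kallikreins, 9 of 17 inhibitors, 9 of 14 activating proteases and 6 of 23 substrates. The same held for 16 of 27 cornified layer genes, 2 of 6 steroid and vitamin receptors and 12 of 42 flanking genes, while 2 flanking genes were lower. Nothing is read from these counts. TPM scaling moved the median log2 fold change of tested genes from -0.06 to -0.21; on it 3739 genes were called higher and 5725 lower (4395 and 4996 on FPKM), 2 inhibitors were lower, and F2r (-0.07) and Spint1 (-0.12) changed direction. Leaving out 1 library gave 4325 to 4380 genes higher and 4905 to 4984 lower. Of 330 refits of 30 named genes, 322 kept the call, and the other 8 were 7 of F2r and that of Spint1. Many of these genes were named for a low adjusted p or a likeness to Klk10 in the same contrast. Kept calls were therefore likely and say little of other genes. Same-numbered libraries did not deviate together (r = -0.0141, -0.0428 and 0.0411), and not every library correlated best with its own number. The replicate block gave 4389 genes higher and 4982 lower and, among the named genes, changed the call of F2r only (log2 fold change 0.08). The unknown depth limits what can be said of members under 1 FPKM.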
